A study of Rattus norvegicus with 30 samples.

Results

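Plantaris tendons of rats were cut across, repaired with suture and left to heal for 21 days while the rats received 2 mg/kg of GSK2894631A, and these 21D 2 mg/kg tendons (n = 5) were compared with tendons of uninjured rats, the control tendons (n = 3). The 8 tendons were taken, by their labels, from a series of 30 tendons, and RNA from each was sequenced and counted per gene. GSK2894631A inhibits hematopoietic prostaglandin D synthase, the enzyme encoded by Hpgds that makes prostaglandin D2. It was given by oral gavage. The animals were male Sprague Dawley rats, 3 months of age. The control rats (day 0, 0 mg/kg) had neither the operation nor the compound, so operation, healing time, gavage and compound cannot be told apart in the comparison with them. The tenotomy was made in both legs, the Achilles tendon was left intact, and the right plantaris was used for RNA. Repaired tendons of rats given vehicle for 21 days (21D 0 mg/kg, n = 5), 6 mg/kg for 21 days (21D 6 mg/kg, n = 5) and 2 mg/kg for 7 days (7D 2 mg/kg, n = 4) served to place the result. Each tendon came from a separate rat.

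Tendon is a collagen-rich tissue with few cells, kept by tenocytes. After a cut it heals by scar: blood-borne cells enter first, fibroblasts then divide and lay down a provisional matrix rich in type III collagen, fibronectin and matricellular proteins, and the matrix is slowly remodelled toward type I collagen. Prostaglandins, which are made from arachidonic acid by the cyclooxygenases Ptgs1 and Ptgs2 and then by a synthase for each product, are among the signals of the early phase.

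The 8 tendons had 20446525 to 41684360 counts each, and 3 counts in a tendon, taken as the limit of detection, corresponded to a normalized level of 0.0686 to 0.245 CPM, the count of a gene scaled to the size of the library. Such limits, and the counting intervals below, cover counting error only. Control tendons stood apart in composition before any test. Genes of the contractile apparatus of skeletal muscle took 16.6%, 16.5% and 21.9% of the counts of control tendons 2, 3 and 4, against 2.73%, 1.41%, 1.06%, 1.11% and 2.46% in 21D 2 mg/kg tendons 1 to 5. The difference was -16.6 percentage points (exact two-sided permutation test, p = 0.0357, the smallest that 56 splits of 3 and 5 tendons allow). By the study's methods, the right plantaris was cut free short of its muscle and heel bone ends to keep those tissues out. Where these counts came from was not tested. In bulk tissue, fewer cells of a type and less RNA per cell cannot be told apart. The control tendons also differed among themselves. The summed level of 17 genes of proteoglycans and mature tendon matrix was 16623, 7889 and 4436 CPM in control tendons 2, 3 and 4, so that tendon 2 was highest. Control tendon 3 was highest in the sum of 9 mast cell genes, with 17.2, 134 and 53.1 CPM. Control tendon 4 was lowest in the sum of 20 macrophage genes, with 3298, 3391 and 1260.0 CPM, and had the largest muscle share. Calls that rest on 1 of them are named below.

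**Figure D1:**
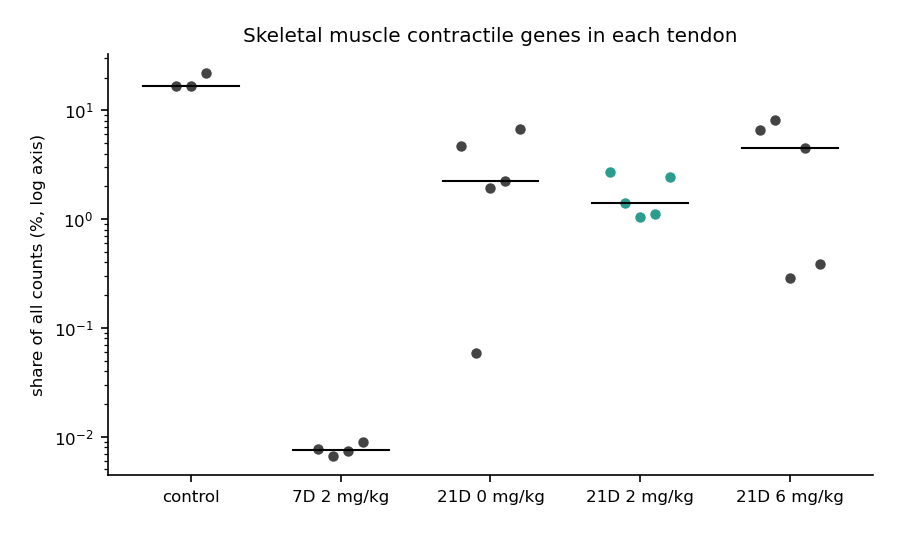
Share of all counts of each tendon taken by 23 genes of the skeletal muscle contractile apparatus, in percent on a log axis, with 1 point per tendon and the group median as a line. All 5 of the 21D 2 mg/kg tendons lie between 1.06% and 2.73%, below the control tendons at 16.5% to 21.9% and above the 7D 2 mg/kg tendons at 0.00664% to 0.00895%.

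Of 12558 genes tested with edgeR's quasi-likelihood test, 6774 differed between 21D 2 mg/kg and control tendons at an adjusted p below 0.05 and at least 1.5-fold. They were 3350 higher genes, which is 26.7% of the genes tested, and 3424 lower genes, 27.3%. These shares are the background for each count below. With 59.8% of the genes tested, every treated tendon lay above, or every one below, all control tendons. The median log2 fold change over all genes was 0.014. When tendons were scaled by their total count alone, without the trimmed mean of M values (TMM) factors, the median moved to 0.54 and the genes split into 5796 higher and 1917 lower, so that 75.2% of the called genes were higher against 49.4% in the main test. The TMM factors ranged from 0.599 to 0.788 in control tendons, and the treated tendons had factors from 1.003 to 1.05. Fold changes are given on the TMM scale, relative to the middle of all genes.

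**Figure D2:**
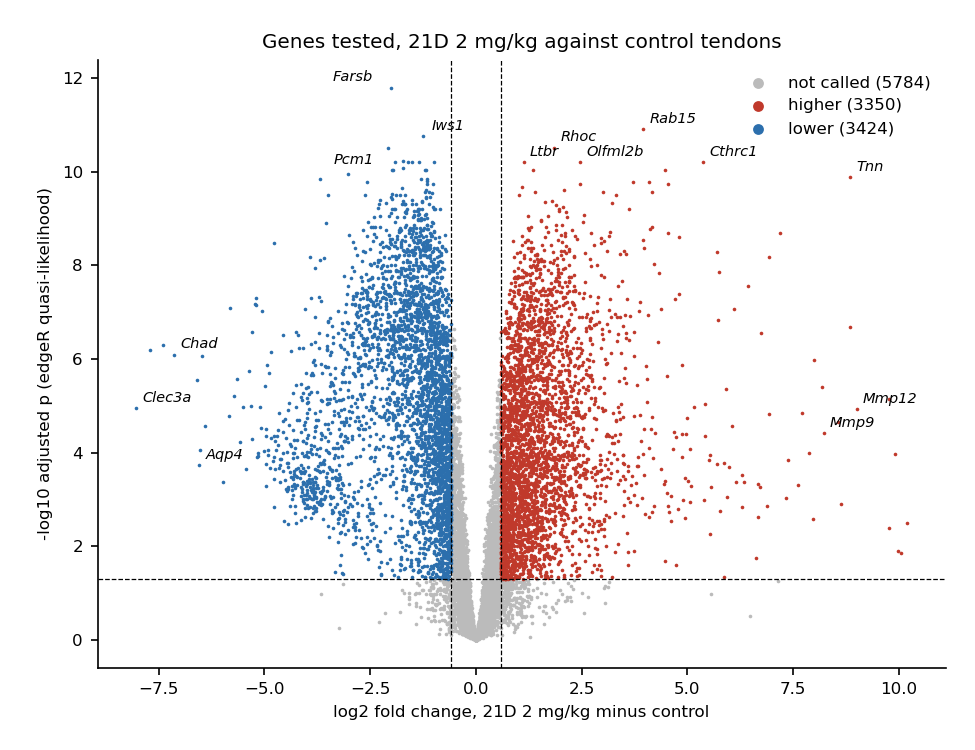
Each point is 1 of 12558 genes tested, with the log2 fold change of 21D 2 mg/kg over control tendons on the x axis and minus log10 of edgeR's adjusted p on the y axis. Dashed lines mark 1.5-fold and an adjusted p of 0.05. Higher (3350) and lower (3424) genes are of nearly equal number, and the smallest adjusted p-values belong to genes such as Farsb and Rab15, not to those with the largest changes, such as Mmp12 and Clec3a. Points far to the right include genes with no counts in any control tendon, for which the fitted fold change is no measurement.

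The largest increases, among genes of at least 10 CPM whose groups did not overlap, included 3 matrix metalloproteinases, the matrix protein gene Tnn and a proton pump subunit of osteoclasts. Mmp12, the macrophage elastase (chromosome 8), was at 0.708, 1.64 and 1.47 CPM in control tendons 2 to 4 and at 152, 1329.8, 148, 1405 and 219 CPM in treated tendons 1 to 5. All treated tendons were far above the controls, and tendons 2 and 4 were above the other treated tendons (log2 fold change 9.0, SE 1.5, adjusted p = 1.16e-05). Tnn, which encodes tenascin-W, a matricellular protein of developing and healing skeletal tissue (chromosome 13), was at 1.27, 0.601 and 1.06 CPM in controls and at 462, 248, 1003, 207 and 305 CPM in treated tendons (log2 fold change 8.84, SE 0.64, adjusted p = 1.32e-10). Here treated tendon 3 was highest. The gelatinase gene Mmp9 rose from 0.395 ± 0.23 to 123 ± 185 CPM (mean ± SD, log2 fold change 8.22), and the collagenase gene Mmp13 from 0.176 ± 0.165 to 19.6 ± 15.9 CPM (6.94). Atp6v0d2, a subunit of the proton pump with which osteoclasts acidify bone, was at 0.283, 0 and 0 CPM in controls and 8.28, 35.6, 11.3, 45.9 and 9.55 CPM in treated tendons (log2 fold change 7.7). Its level was again highest in treated tendons 2 and 4. Further members of the 10 largest increases were Cdhr1, a cadherin-related gene (8.84), the chemokine gene Ccl9 (7.38), Msln, which encodes mesothelin (7.2), and LOC100911486 (6.93). Control tendons held 0 to 4 counts of Cdhr1 each and 0 to 6 of Atp6v0d2, so the size of these 2 changes is loosely set.

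The largest decreases, by the same criteria, included genes of cartilage-type matrix and of muscle fibers beside genes of neither kind. Clec3a, a cartilage-type lectin (chromosome 19), was at 765, 76.3 and 28.9 CPM in control tendons 2 to 4 and at 2.25, 0.46, 0.0897, 1.99 and 0.628 CPM in treated tendons 1 to 5 (log2 fold change -8.03, SE 1.34, adjusted p = 1.11e-05). Chad, which encodes chondroadherin, a leucine-rich protein that binds type II collagen and cells (chromosome 10), was at 963, 179.9 and 119 CPM in controls and 3.96, 2.59, 2.39, 1.78 and 4.39 CPM in treated tendons (-7.13, SE 0.98, adjusted p = 8.03e-07). Control tendon 2 was several times above the other control tendons in both genes, yet even the lowest control tendon was above every treated tendon. Coch, which encodes cochlin, had the same order: 43.5, 8.58 and 4.41 CPM in controls against 0.0299 to 0.663 CPM (-5.97). Aqp4 (log2 fold change -6.54), the water channel of fast muscle fibers, Ostn (-6.53), which encodes the muscle-secreted peptide osteocrin, and Fbp2 (-6.41), the muscle form of fructose-bisphosphatase, fell together with the muscle share of counts given above. Fam83b (-7.7), Cdhr3 (-5.8), Cntnap4 (-5.65) and Asb4 (-5.51) completed the 10 largest decreases. With the muscle share of each tendon entered in the model, Aqp4 was not called (-1.04). The others of these decreases stayed called in every alternative setting. Their smallest falls there included -1.97 for Fbp2, -2.27 for Asb4 and -2.57 for Ostn, but -7.28 for Clec3a and -6.55 for Chad. Every control tendon had a larger muscle share than every repaired tendon, so such a model cannot part muscle RNA from repair.

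The genes with the smallest p-values ranged from small to large changes. Among higher genes they were Rab15 (11.3, 10.1 and 6.13 CPM in controls against 134, 145, 175, 159.5 and 104 CPM, adjusted p = 1.23e-11), a GTPase of membrane traffic, Rhoc (log2 fold change 1.85), a GTPase of the actin skeleton, the matrix gene Olfml2b (2.46), Cthrc1 (5.38), which marks matrix-producing fibroblasts, and Ltbr (1.13), the lymphotoxin beta receptor. Among lower genes they included Farsb (-2.0), a subunit of phenylalanyl-tRNA synthetase, Iws1 (-1.24), a factor of transcript elongation, Pcm1 (-2.08), of the material around the centrosome, and Pnpla8 (-1.72), a phospholipase of mitochondria and peroxisomes. Farsb was at 137, 143 and 110.0 CPM in control tendons and 31.5, 39.9, 26.9, 33.3 and 30.5 CPM in treated tendons (adjusted p = 1.60e-12).

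Collagen genes were mostly higher, while the call for the main chain of type I collagen depended on the tool, the setting and the tendons used. Of 19 collagen genes tested 15 were higher and 1 was lower, with a median log2 fold change of 1.46. Col3a1, the chain of the type III collagen of young scar, was at 11412, 12298 and 3490.1 CPM in controls and 54578, 41074, 56734, 38612 and 55282 CPM in treated tendons. The lowest treated tendon was well above the highest control tendon (log2 fold change 2.44, SE 0.3, adjusted p = 1.30e-07). Col1a1, the main chain of the type I collagen of tendon, was at 30142, 17827 and 7359.5 CPM in controls and 30556, 26708, 31781, 19906 and 40060.5 CPM in treated tendons. The groups overlapped, since control tendon 2 was as high as most treated tendons, and the difference did not pass the test (log2 fold change 0.69, adjusted p = 0.0627). It did pass without control tendon 2 (1.17, adjusted p = 0.00460), without treated tendon 4 (0.81, adjusted p = 0.0374) and when scaled by total count (1.17, adjusted p = 0.00441). The other tools run all called it, DESeq2 (0.67, adjusted p = 0.0393), limma (0.88, adjusted p = 0.0445) and edgeR's likelihood ratio test (0.69, adjusted p = 0.0476). So did the main test with a minimum of 10 CPM (0.75, adjusted p = 0.0456) or with the replicate number as a block (0.84, adjusted p = 0.0350). The rest of the 11 alternative settings did not call it, with adjusted p up to 0.238. Among them were the fit of the 2 groups alone and the model with the muscle share. Of 8 fits with 1 tendon left out, only the 2 given above called it. In the others the log2 fold change fell as low as 0.255 and the quasi-likelihood adjusted p rose to 0.46.

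The chains of type V collagen, which sets fibril diameter, were higher. Col5a3 rose from 63.4 ± 7.95 to 1183 ± 465 CPM, 18.6-fold, and Col5a1 (2.42) and Col5a2 (2.73) rose as well. Type VI collagen of the cell surround (Col6a1 2.18, Col6a2 2.05), the fibril-associated Col12a1 (1.46) and Col14a1 (1.44), and the basement membrane chains Col4a1 (1.12) and Col4a2 (1.09) were all higher. The member that fell was Col24a1, a fibrillar collagen of bone and mature connective tissue, at 72.8, 90.5 and 35.9 CPM in controls and 6.4, 4.97, 5.65, 4.46 and 4.15 CPM in treated tendons, 13-fold lower (adjusted p = 4.78e-08).

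Genes that fold, trim and crosslink collagen went the same way, with 13 of 17 higher, 1 lower (0 without control tendon 2 or 3) and a median of 1.49. The crosslinking oxidases Lox (1.87), Loxl1 (2.95) and Loxl2 (2.33) rose. The prolyl hydroxylase subunit P4ha3 rose from 6.47 ± 3.71 to 70.1 ± 10.7 CPM, while P4ha1 did not pass the test (-0.16). The collagen chaperone Serpinh1 (1.34) and the lysyl hydroxylase Plod2 (1.7), whose crosslinks are typical of scar, were higher. Of 24 genes of protein folding and export in the endoplasmic reticulum, 16 were higher and 0 lower, by a median of 0.91. Examples were Sdf2l1 (2.19), Sec61a1 (1.38), Creb3l1 (1.3), a transcription factor of collagen export, and P4hb (1.06).

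Matricellular genes, whose products steer cells rather than bear load, had 13 of 16 higher and 0 lower, with a median of 2.37. Fn1, which encodes fibronectin, was at 2496, 1303 and 403 CPM in controls and 19711, 19243, 17809, 13574 and 15278 CPM in treated tendons, 12.2-fold higher (adjusted p = 3.93e-07). Cthrc1 was at 11.7, 14.9 and 7.76 CPM against 462, 356, 602, 404 and 561 CPM, with the 5 treated tendons close to each other. Spp1, which encodes osteopontin, was at 6.75, 4.89 and 8.33 CPM against 74.4, 1292, 167, 1737 and 202 CPM, and treated tendons 2 and 4 were several times above the rest (log2 fold change 6.71, adjusted p = 0.000555). Periostin (Postn 2.52), versican (Vcan 2.49) and thrombospondins 1 to 3 (Thbs1 3.03, Thbs2 1.61, Thbs3 2.24) rose. Tnc, which encodes tenascin-C, was at 149 ± 95.3 CPM in controls and 215 ± 133 CPM in treated tendons and did not pass the test (0.53, adjusted p = 0.321), unlike its relative Tnn.

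Matrix-degrading enzymes and their inhibitors had 15 of 20 higher and 1 lower (median 2.13). Mmp14, the membrane-bound collagenase that activates the Mmp2 product, was at 56.2, 63.1 and 30.1 CPM in controls and 1098, 959, 1181, 1156 and 1133 CPM in treated tendons. The 5 treated tendons were close to each other, and the increase was 22.2-fold (SE 0.32 on the log2 scale, adjusted p = 9.15e-11). Mmp2 (2.15), Mmp16 (2.67), Mmp19 (2.87), Adamts4 (2.38) and Adamts12 (2.11) also rose. The inhibitor genes split: Timp1 rose from 46.1 ± 21.2 to 261 ± 39.8 CPM and Timp2 was higher (1.26), while Timp4 fell from 27.6 ± 13 to 4.99 ± 1.68 CPM. Neither Mmp3 (1.24) nor the neutrophil collagenase Mmp8 (0.1) passed the test, although Mmp3 did without control tendon 2 (1.75), by limma (1.81) and when scaled by total count (1.69).

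Proteoglycans and other proteins of mature tendon went both ways, 8 of 17 higher and 5 lower, or 3 lower without control tendon 2 (median 0.84). Lumican, the small proteoglycan of thin fibrils, was encoded by Lum at 274, 78.7 and 135 CPM in controls and 2808, 1732, 4317, 2207 and 3075 CPM in treated tendons, 17.4-fold higher. Biglycan (Bgn 2.06) and Prelp (1.32) rose. Decorin (Dcn, 4099.5 ± 1968 against 4308 ± 125 CPM, 0.07) did not pass the test. Fibromodulin, which limits fibril growth, fell (Fmod 3209.6, 869 and 772 CPM in controls against 965, 658, 794, 484 and 742 CPM, -1.15), but the groups overlapped, and without control tendon 2, the sole high one, the difference was -0.25 and did not pass. Clec3a, Chad and Coch, above, and Cilp2 (-1.36) were the other lower members. Cilp2 was not called without control tendon 2 (-0.25) or without treated tendon 2 (-1.29) or 4 (-1.23).

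Of 12 genes of the tendon lineage 3 were higher and 6 lower, by a median of -0.58. Tnmd, which encodes tenomodulin, the best known marker of mature tenocytes, was at 364, 147 and 178 CPM in controls and 108, 70.5, 86.1, 67.7 and 101 CPM in treated tendons. Every treated tendon was below every control tendon (log2 fold change -1.41, SE 0.44, adjusted p = 0.00692). The call did not hold without control tendon 2, the highest (-0.98, adjusted p = 0.0751), or when scaled by total count (-0.89, adjusted p = 0.0787). Mkx, which encodes Mohawk, a transcription factor of tendon maturation, was at 9.39, 4.89 and 2.78 CPM against 0.982, 1.01, 1.08, 0.594 and 0.314 CPM, 7.14-fold lower (adjusted p = 0.000122). Kera (-1.46, but -0.60 and not called without control tendon 2) and Six2 (-1.88) also fell. Scx, the transcription factor that marks tendon progenitors, was at 27.2 ± 9.25 CPM in controls and 20.2 ± 5.49 CPM in treated tendons and did not pass the test (-0.43, adjusted p = 0.32). Egr2 rose, from 1.32, 4.25 and 4.08 to 12.7, 61.1, 14.5, 50.9 and 25.1 CPM (3.36), with treated tendons 2 and 4 highest, while Egr1 did not pass (0.72). Fgf18 (1.43) and Thbs4 (1.12, but 0.83 and not called without control tendon 3 or control tendon 4) were the other higher members. Without control tendon 2, or scaled by total count alone, 3 members were lower in place of 6.

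Cartilage and bone genes showed no common direction, with 2 of 10 higher and 4 lower. Col11a2 (-4.25), Col9a1 (-3.11) and the phosphatase genes Phospho1 (-3.09) and Alpl (-1.75) fell. Runx2, the transcription factor of bone-forming cells, rose from 6.55 ± 1.5 to 19.2 ± 6.53 CPM, and Matn3 was higher (3.47). Sox9 (0.45) and Acan (0.96) did not pass.

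**Figure D3:**
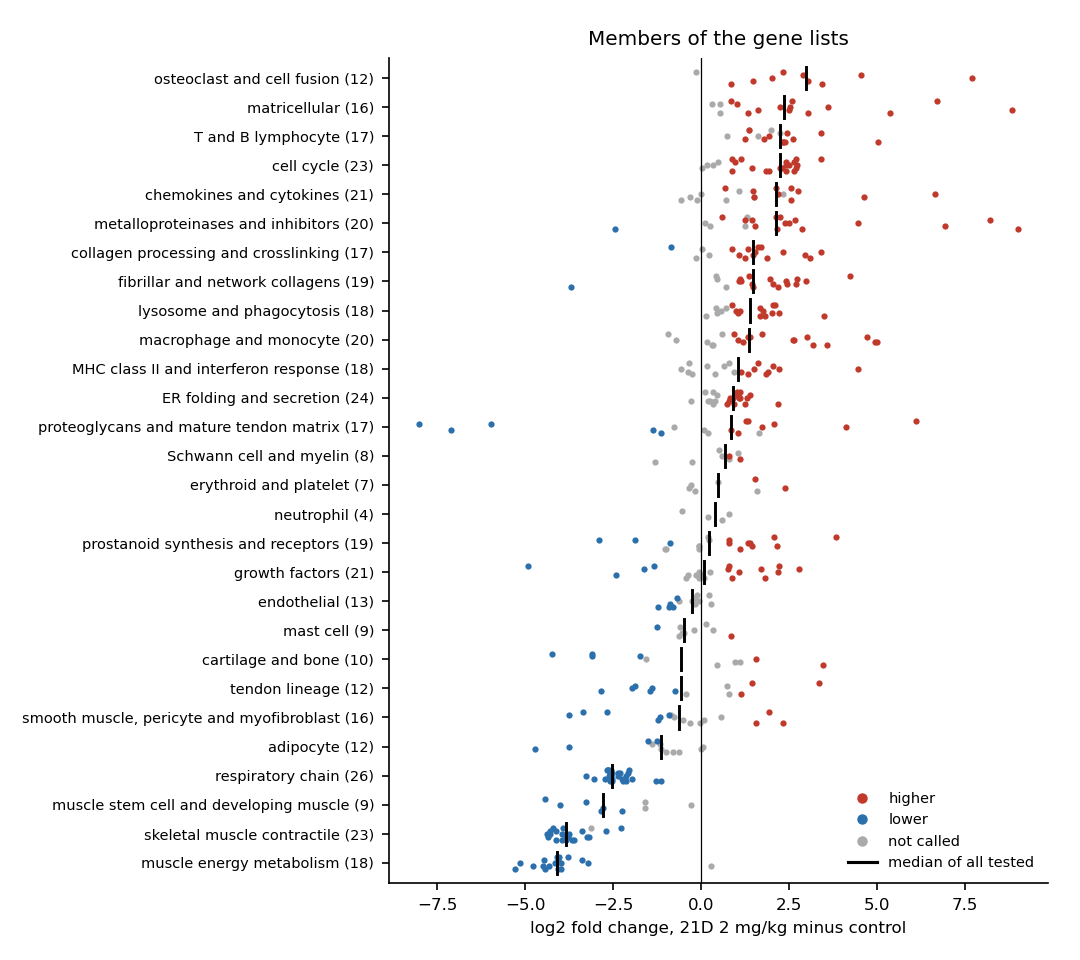
Log2 fold change of 21D 2 mg/kg over control tendons for the tested members of 28 gene lists, with 1 point per gene and the median of each list as a bar (number tested in brackets). Osteoclast and cell fusion genes have the highest median at 2.97 and muscle energy genes the lowest at -4.09. Genes with at most 3 counts in every control tendon, or in every treated tendon, are left out of the points.

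Genes of the osteoclast, the bone-resorbing cell that forms by fusion of macrophage precursors, made up the list with the highest median, 2.97, with 11 of 12 higher and 0 lower. Ctsk, the collagen-degrading cathepsin K, rose from 108 ± 40.8 to 888 ± 421 CPM (3.04, adjusted p = 1.02e-06), and Acp5, the tartrate-resistant acid phosphatase, from 11.9 ± 3.81 to 129 ± 71.9 CPM (3.43). Siglec15, a receptor of fusing precursors, had no counts in any control tendon and was at 1.8, 3.45, 1.32, 8.64 and 1.99 CPM in treated tendons, at least 20.4-fold higher by the limit of 3 counts in each control tendon. Ocstamp, a membrane protein needed for fusion, had 1 count in the control tendons and was at 1.54, 19.1, 0.538, 15.9 and 4.36 CPM in treated tendons. The ratio of its summed levels was 517, 95% counting interval 92.6 to 20418. Trem2 (2.89), its signalling partner Tyrobp (2.32) and Itgb3 (2.02) were higher. Nfatc1, the master factor of osteoclasts, was at 61.7 ± 17.7 CPM and 55.8 ± 10.2 CPM and was the member that did not pass (-0.15). Whether osteoclasts or other cells, such as macrophages, carried the transcripts of this list was not tested.

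Macrophage genes rose in part, with 14 of 20 higher and 0 lower (median 1.36). Gpnmb, a glycoprotein of lipid-laden macrophages, was at 62.9, 88.4 and 21.9 CPM in controls and 832, 2865, 785, 3652 and 1093 CPM in treated tendons, 31.9-fold higher (adjusted p = 1.78e-05). Cd68, of macrophage lysosomes, was at 26, 23.6 and 7.19 CPM against 91.9, 268, 67.4, 315 and 123 CPM, and Itgax, an integrin of dendritic cells and inflammatory macrophages, at 5.29, 2.0 and 0.817 CPM against 27.7, 128, 45.9, 183 and 44.1 CPM. In these 3 genes all treated tendons were above the controls and tendons 2 and 4 were the highest.

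Lyz2 (2.61), Apoe (3.01), Lgals3 (2.65) and Cx3cr1 (3.59) were higher as well. Cd163, the hemoglobin scavenger receptor of tissue macrophages, was instead at 96.6, 80.6 and 13 CPM in controls and 49.4, 34, 13.5, 22.8 and 46 CPM in treated tendons and did not pass the test (-0.94, adjusted p = 0.103). Without control tendon 4 it was called lower (-1.48, adjusted p = 0.0103). Mrc1 (0.33) did not pass either, nor did the complement genes C1qa (0.6), C1qb (0.31) and C1qc (0.18). Without control tendon 4, which was far below the other controls in Cd163 and in the summed level, 8 macrophage genes were higher and 2 lower in place of 14 and 0. Vsig4 was called higher with overlapping groups, since treated tendon 2, at 59.3 CPM, held most of its level and the others were at 0.359 to 7.18 CPM. It was not called without treated tendon 2 (2.80) or without control tendon 3 (4.27) or 4 (4.21).

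Lysosome and phagocyte oxidase genes had 13 of 18 higher and 0 lower (median 1.39). Cybb, the catalytic subunit of the phagocyte oxidase, rose from 69.5 ± 47.3 to 785 ± 599 CPM (3.5, adjusted p = 0.0013). The cathepsins Ctsb (1.67), Ctsl (1.11) and Ctsz (2.1), Lgmn (2.01) and Npc2 (1.68) were higher, whereas Ctsd (0.44) and Lamp1 (0.12) did not pass. Summed over the 20 macrophage genes, treated tendons 1 to 5 stood at 12918, 16723, 6164, 17126 and 13245 CPM, all above the highest control tendon. Tendons 2 and 4 were highest and tendon 3 lowest of the treated tendons.

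Genes of antigen presentation by class II molecules rose: RT1-Bb (2.05), RT1-Db1 (1.89), RT1-Da (1.32), Cd74 (from 313 ± 122 to 968 ± 285 CPM) and their activator Ciita (1.86). Members of the RT1 families are close in sequence, so reads may be shared between them. Interferon-response genes of the same list mostly did not pass, among them Isg15 (0.64), Mx1 (0.8), Irf7 (0.94) and Ifit3 (-0.35). The list had 9 of 18 higher and 0 lower, or 1 lower without control tendon 2 or treated tendon 5.

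Lymphocyte genes were higher in 12 of 17 cases, with 0 lower (median 2.25, or 1.98 with Ms4a1 at its bound). Cd8a rose from 1.42 ± 0.631 to 5.57 ± 1.66 CPM and Cd3g from 0.457 ± 0.155 to 2.44 ± 1.26 CPM, both of T cells. Ptprc, of all leukocytes, rose from 27.7 ± 18.2 to 139.6 ± 68.2 CPM (2.33). Jchain, which joins antibodies of plasma cells, was at 0.0472, 0.16 and 0.572 CPM in controls and 6.4, 4.97, 2.42, 5.6 and 17.5 CPM in treated tendons (5.01, adjusted p = 0.000406). The B cell gene Ms4a1 had no counts in controls and 0.0457 to 1.19 CPM in treated tendons, at least 2.35-fold higher, and missed the test without control tendon 2 (adjusted p = 0.0522) or 3 (adjusted p = 0.0534). Cd3e, with 0.516 ± 0.636 and 1.7 ± 1.08 CPM, did not pass (1.62). It was called without control tendon 2 (3.02) or treated tendon 3 (1.83), when scaled by total count (2.10), and by DESeq2 (1.64), limma (2.28) and the likelihood ratio test (1.66). Neutrophil genes were near the floor, with 0 of 4 called, or 1 higher without control tendon 2. S100a8 was at 1.84 ± 0.286 CPM in controls and 2.84 ± 2.16 CPM in treated tendons. Mast cell genes gave 1 higher (Kit) and 1 lower (Gata2) of 9, but 4 higher without control tendon 3, 0 higher without control tendon 2 and 0 lower without control tendon 4. Cpa3, the mast cell carboxypeptidase, was at 1.7, 24.8 and 1.63 CPM in controls, high in control tendon 3 alone, and at 8.98, 2.24, 2.24, 0.252 and 19.3 CPM in treated tendons.

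Of 21 chemokine and cytokine genes tested, 12 were higher and 0 lower (median 2.14). Il1rn, which encodes the natural antagonist of the interleukin-1 receptor, was at 2.22, 2.29 and 0.735 CPM in controls and 30.1, 366, 36.1, 434 and 53.3 CPM in treated tendons, with tendons 2 and 4 several times above the rest (6.66, adjusted p = 0.000458). The interleukin-1 gene Il1b itself was at 3.82, 4.21 and 0.327 CPM against 6.03, 9.72, 6.25, 4.21 and 14.8 CPM, with overlap (1.5, adjusted p = 0.0255), and was not called without control tendon 4 (0.96) or treated tendon 5 (1.17). The monocyte attractants Ccl2 (2.54), Ccl3 (4.62) and Ccl7 (2.14) rose. For the neutrophil attractants Cxcl3 and Cxcl6, each with 1 count in the controls, the ratios of summed levels were 256, 95% counting interval 45.8 to 10111 and 146, 95% counting interval 26 to 5768. Cxcl9 (-0.01), Cxcl10 (1.07) and Il33 (-0.13) did not pass.

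**Figure D4:**
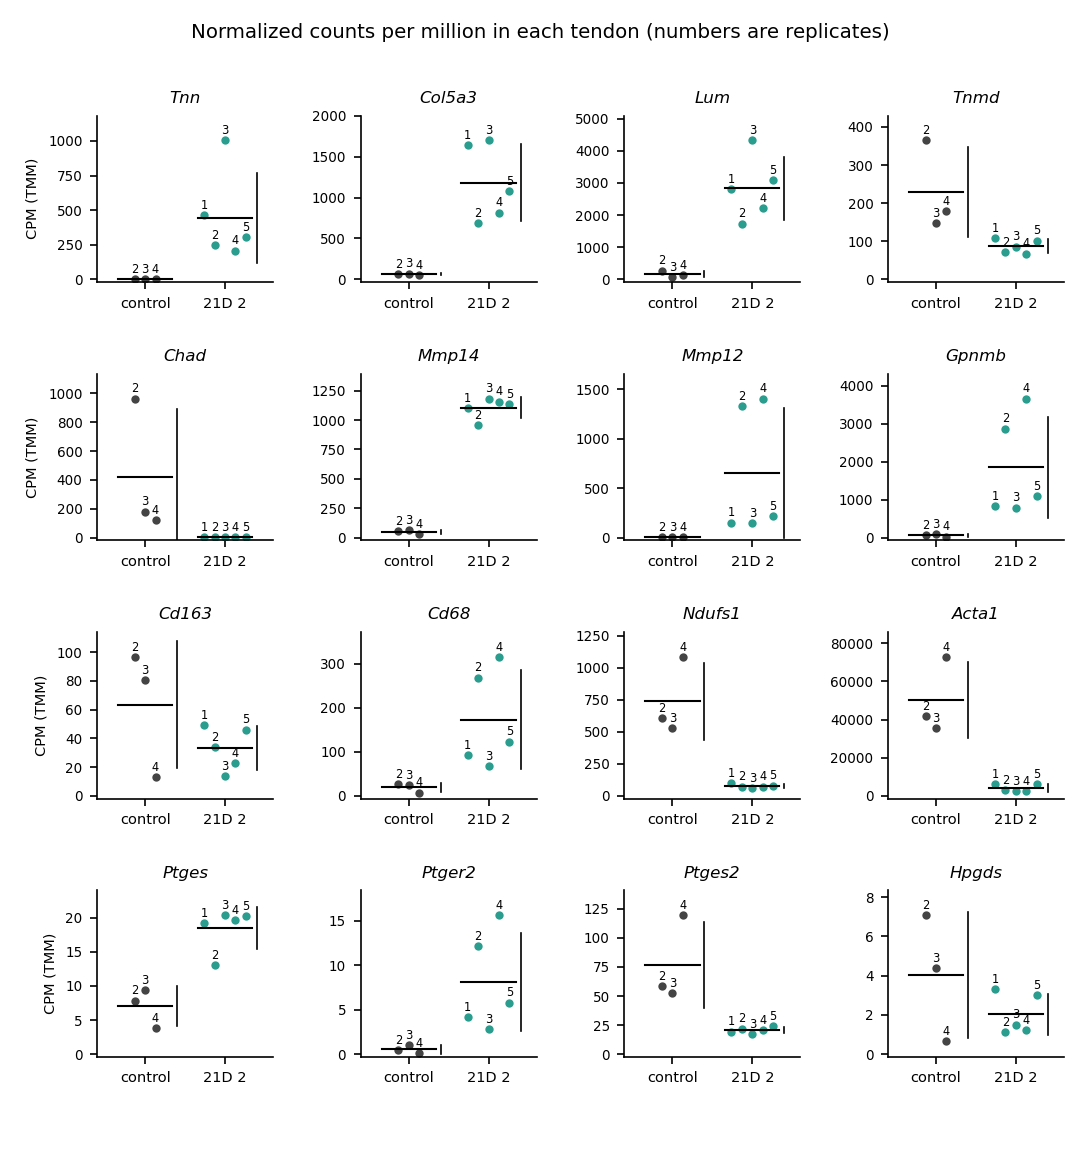
CPM (TMM-normalized) of 16 genes in each control tendon (grey, replicates 2 to 4) and each 21D 2 mg/kg tendon (green, replicates 1 to 5). Horizontal lines are group means and vertical lines are ± SD, not drawn below the axis. Treated tendons are even in Mmp14 but tendons 2 and 4 are highest in Mmp12, Gpnmb, Cd68 and Ptger2, and control tendon 4 is lowest in Cd163 and Hpgds and highest in Ndufs1 and Acta1.

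Cell cycle genes were higher in 19 of 23 cases, with 0 lower and a median of 2.24. Mki67, present in dividing cells, was at 8.16, 6.66 and 1.72 CPM in controls and 26.1, 23.9, 47.2, 21.2 and 30.6 CPM in treated tendons (2.4, adjusted p = 1.43e-05). Genes of mitosis (Ccnb1 2.7, Bub1b 3.4, Plk1 2.5) rose more than those of DNA licensing (Mcm2 0.96, Mcm3 1.14), a difference that was not tested, and the cyclin gene Ccnd1 did not pass (0.15).

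Growth factor genes split into 9 higher and 4 lower of 21 (median 0.09). Tgfb1, the factor that drives scar matrix, rose from 30.3 ± 8.04 to 139 ± 29.97 CPM (2.19, adjusted p = 7.57e-07), and Tgfb2 fell from 151 ± 34.5 to 49 ± 4.0 CPM (-1.63). Igf1 (1.81), Hgf (2.22) and the lymphatic growth factors Vegfc (1.06) and Vegfd (2.79) were higher. Vegfa, the main factor of blood vessel growth, was at 472, 391 and 754 CPM in controls and 112, 111, 76.2, 99.2 and 104 CPM in treated tendons, 5.37-fold lower (adjusted p = 7.07e-08). Muscle also makes it, and the muscle share moved with it, but muscle RNA and repair cannot be told apart here. Vegfa stayed called in all 11 alternative settings (-2.52 to -1.85), a model with the muscle share among them. Mstn, which encodes the muscle growth inhibitor myostatin, fell (-4.91).

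Endothelial genes had 0 of 13 higher (1 without control tendon 3, 2 when scaled by total count) and 5 lower, with a median of -0.25 and overlapping groups in all 13. Cdh5 (-0.91), Kdr (-0.9), Emcn (-0.8), Esam (-0.69) and Sox17 (-1.24) were the lower ones. None of the 5 was called when tendons were scaled by total count, when the muscle share entered the model, or when control tendon 4 was left out, and 1 to 3 were called without control tendon 3 or treated tendon 2, 3 or 4. Genes of vessel wall and contractile fibroblasts had 3 of 16 higher and 6 lower. The higher ones mark fibroblasts and mural cells: Thy1 (from 87.8 ± 41.2 to 436 ± 57.6 CPM), Fap (1.94) and Pdgfrb (1.54). Acta2, which encodes smooth muscle actin, the usual marker of myofibroblasts, was at 63.5 ± 33.5 CPM in controls and 61.9 ± 23.4 CPM in treated tendons (-0.04, adjusted p = 0.93). Des (-3.37), Tpm2 (-3.76) and Abcc9 (-2.69), which skeletal muscle expresses too, fell most. The part of muscle RNA in these falls cannot be told from that of repair.

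Of 23 genes of the skeletal muscle contractile apparatus 22 were lower and 0 higher, with a median of -3.85. Acta1, skeletal alpha-actin, was at 41626, 35679 and 72823 CPM in controls and 6080.4, 3088, 2324, 2582 and 6232 CPM in treated tendons (-3.62, adjusted p = 0.00255), and Myh4, the fastest myosin heavy chain, fell by 4.29 on the log2 scale. Reads of myosin heavy chains may be shared between near-identical family members. Muscle energy genes had 17 of 18 lower (median -4.09), among them Ckm (-4.06), Pygm (-4.48) and Pdk4 (-5.31). Myogenic regulators fell too, Myod1 from 37.7 ± 15.1 to 5.28 ± 3.8 CPM and Myf6 from 223 ± 37 to 13.9 ± 5.67 CPM, with 6 of 9 genes of muscle stem cells and developing muscle lower and 0 higher. With the muscle share of each tendon in the model, 9 contractile, 11 energy and 2 stem cell genes were lower.

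All 26 genes of the mitochondrial respiratory chain were lower in 21D 2 mg/kg than in control tendons, with no overlap in any, and by a median of -2.53. They encode subunits of the complexes that pass electrons to oxygen and of ATP synthase. Ndufs1, of complex I, was at 609, 527 and 1086 CPM in control tendons and 101, 72.2, 59.7, 72.6 and 79 CPM in treated tendons, 9.62-fold lower (SE 0.39 on the log2 scale, adjusted p = 9.28e-08). Atp5f1b, the catalytic subunit of ATP synthase, was at 4539, 3879 and 8573 CPM against 994, 1014, 748, 999 and 963 CPM (-2.59). Control tendon 4, which had the largest muscle share, was also the highest in both. Sdha, of complex II (-2.55), Uqcrc2, of complex III (-2.63), and Cox5a, of complex IV (-2.54), moved by like amounts, and Ndufa2 moved less (-1.27). With the muscle share in the model the count of lower genes was again 26, and it was 25 when tendons were scaled by total count or when control tendon 4 was left out. In the 7D 2 mg/kg tendons, whose muscle share was at most 0.00895%, the median of the same list against the control tendons was -2.58. Every control tendon had a larger muscle share than every repaired tendon, so the model cannot part muscle RNA from repair. The muscle share of 21D 2 mg/kg tendons, 1.06% to 2.73%, was itself far below that of controls. Like medians in both groups therefore do not part them either.

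Adipocyte genes had 4 of 12 lower, or 2 without control tendon 3, and 0 higher (median -1.16). Car3 (from 6592 ± 3367 to 247 ± 129 CPM) and Plin4 (-3.77) fell most, and both are also made by muscle. Both stayed called in all alternative settings, with smallest falls of -2.545 and -2.507. The part of muscle RNA cannot be told from that of repair. Adiponectin (Adipoq) was at 38.3, 105 and 47.4 CPM in controls and 56, 22.7, 18.3, 11.9 and 48.8 CPM in treated tendons, with overlap (-1.01, adjusted p = 0.135). Of 8 Schwann cell genes 2 were higher, Pmp22 (0.8, but 0.38 and under the fold threshold without control tendon 4) and Cnp (1.09), and 0 lower. Of 7 erythroid and platelet genes the platelet genes Pf4 (1.52) and Itga2b (2.39) were higher, mostly through treated tendon 3, where Itga2b was at 297 CPM against 14.8 to 52.0 CPM in the other 4. Without that tendon neither was called (Itga2b 0.95, Pf4 0.99), nor without control tendon 3 (2.10 and 1.34) or 4 (1.98 and 0.99). The globin gene Hbb was at 7118, 2217 and 815 CPM in controls and 2426, 1732, 1888, 2068 and 6859 CPM in treated tendons (-0.18).

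The target of the compound, Hpgds, was at 7.08, 4.37 and 0.653 CPM in control tendons and 3.31, 1.12, 1.5, 1.23 and 3.0 CPM in treated tendons. Levels were low and the groups overlapped, with control tendon 4 below every treated tendon (log2 fold change -1.01, SE 0.5, adjusted p = 0.0767). The difference was called lower without control tendon 4 (-1.55, adjusted p = 0.00545) and without treated tendon 1 (-1.26, adjusted p = 0.0379). In the other fits with 1 tendon left out that kept the gene it was not called, with values as small as -0.86. It was called in 0 of the 10 alternative settings that kept it (-1.22 to -0.56, adjusted p from 0.0596 to 0.347). Transcript level says nothing of the activity of an inhibited enzyme. Of 19 genes of prostanoid synthesis and reception tested, 9 were higher and 3 lower (median 0.22).

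At the head of the pathway, the phospholipase Pla2g4a, which frees arachidonic acid, rose from 6.9 ± 4.08 to 17.5 ± 1.66 CPM. Ptgs2, the inducible cyclooxygenase, was at 1.65, 5.77 and 2.94 CPM in controls and 7.89, 8.42, 14.7, 10.01 and 6.73 CPM in treated tendons, all above the controls (1.45, adjusted p = 0.00478, but 1.03 and adjusted p = 0.0558 without control tendon 2). The constitutive Ptgs1 was at 41 ± 19.8 and 39.1 ± 15.5 CPM (-0.07). The 3 synthases of prostaglandin E2 differed. Ptges, the inducible form, was at 7.83, 9.42 and 3.76 CPM in controls against 19.2, 13.1, 20.4, 19.7 and 20.3 CPM (1.39, adjusted p = 6.46e-05). Ptges2 went the opposite way, 58.7, 52.2 and 119.6 CPM against 19.3, 21.9, 17.4, 20.9 and 23.9 CPM (-1.89, adjusted p = 2.25e-07), and Ptges3 did not pass (0.2). Fam213b, a synthase of prostaglandin F2 alpha, fell from 87.9 ± 54.6 to 11.7 ± 2.03 CPM (-2.91), and Akr1b1, with the same activity, fell less (-0.88). Thromboxane synthase, Tbxas1, rose with overlap (2.07), and treated tendons 2 and 4 were its highest.

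Among receptors, Ptger2 was at 0.425, 1.04 and 0.0817 CPM in controls and 4.13, 12.1, 2.84, 15.6 and 5.79 CPM in treated tendons, 14.2-fold higher (adjusted p = 0.000189), and Ptger4 rose from 2.42 ± 2.08 to 10.4 ± 2.83 CPM. Both bind prostaglandin E2 and raise cyclic AMP. Ptger1 rose by less (0.79), Ptger3 was at 1.57 ± 0.852 and 0.783 ± 0.705 CPM (-1.04), and Ptgir, which binds prostacyclin, did not pass (0.22). Hpgd, the enzyme that breaks prostaglandins down, was higher (1.11), but was not called without control tendon 3 (0.996) or 4 (0.64) or without treated tendon 2 (1.03), 3 (1.07) or 5 (1.04). Slco2a1, which takes prostaglandins up, was not called (-0.07), but was higher without control tendon 3 (1.44), where it was at 44.4 CPM.

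The study asked whether the inhibitor changes healing by mechanical tests, histology, qPCR and RNA sequencing. Only the RNA counts are analysed here, and for them that question rests on the comparison between repaired groups. The other groups were tested against the same 3 control tendons, so their results are not independent of those above. With vehicle for 21 days, 3184 genes were above and 3163 below the control tendons. With 6 mg/kg these numbers were 3003 and 3085, and after 7 days of 2 mg/kg they were 3650 and 3327. For vehicle at 21 days against controls, the study itself reports far fewer genes at like thresholds. The source of that gap was not tested. In the 21D 0 mg/kg, 21D 6 mg/kg and 7D 2 mg/kg groups, osteoclast and cell fusion genes had medians of 2.9, 2.64 and 2.98. They had 2.97 in 21D 2 mg/kg tendons, and collagens had 1.71, 1.73 and 1.42 against 1.46. Other lists lay further apart. Adipocyte genes had 0.52, -0.26 and 2.4 against -1.16, and contractile genes -3.1, -2.6 and -12.48 against -3.85. Endothelial genes had medians of 0.32, 0.29 and 0.08 against -0.25. They had 0 lower in each of the other groups, against 5 in 21D 2 mg/kg tendons, and 0 of these without control tendon 4. Tested directly against 21D 0 mg/kg or 21D 6 mg/kg tendons, 0 endothelial genes were called. Against 7D 2 mg/kg tendons 3 were lower.

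**Figure D5:**
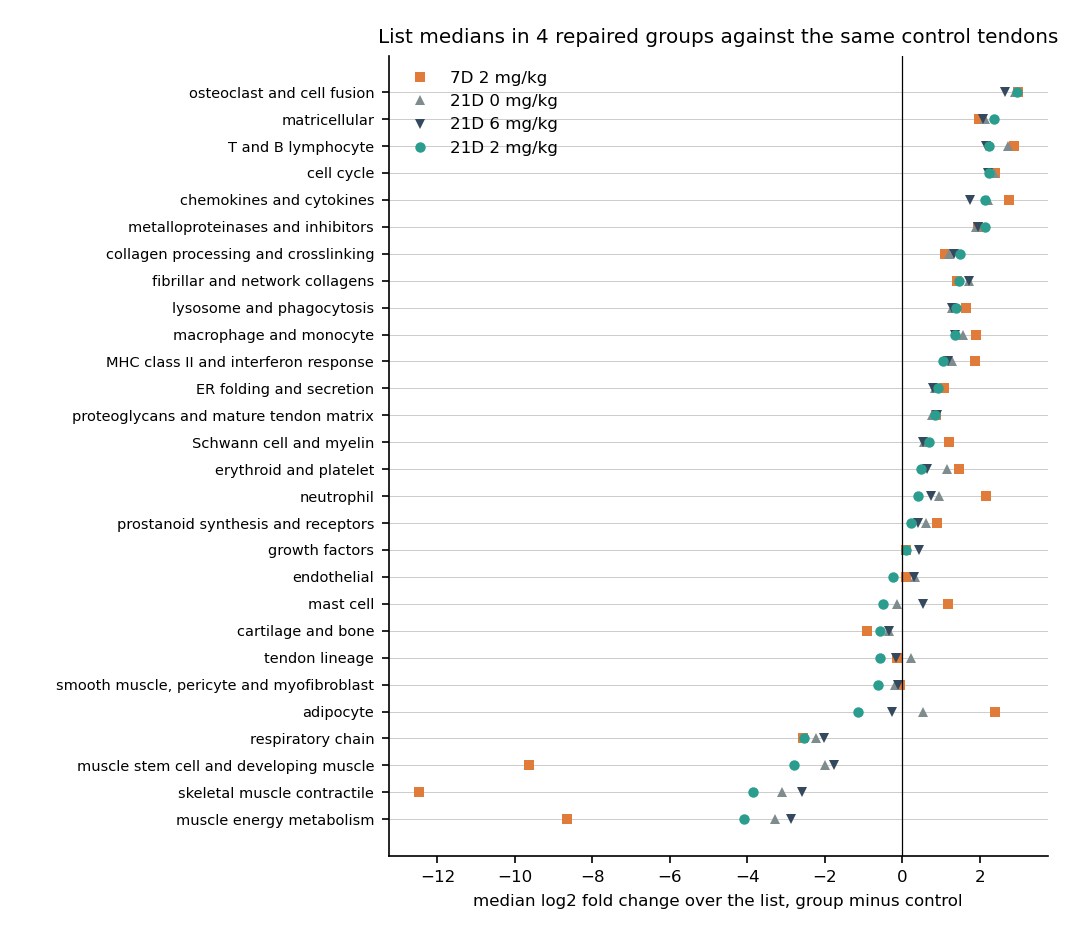
Median log2 fold change over each of 28 gene lists for 4 repaired groups, each minus the same 3 control tendons. The day 21 groups lie close together on most lines, while the 7D 2 mg/kg tendons stand apart in muscle genes (-12.48 for contractile genes against -3.85 at 21D 2 mg/kg) and adipocyte genes (2.40 against -1.16).

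Tested directly against 21D 0 mg/kg tendons, which had the same operation and time but no compound, 0 genes (0% in each direction) were called by edgeR's quasi-likelihood test in 21D 2 mg/kg tendons. The smallest adjusted p was 0.229. At an unadjusted p below 0.05 there were 1078 genes, limma called 0, edgeR's likelihood ratio test 4 and DESeq2 11. The median half-width of the 95% interval of a gene's difference was 0.34 on the log2 scale, and for 83.7% of genes the interval lay within 1 log2 unit of no difference. The genes with the smallest p were Catsperg (-0.84, adjusted p = 0.229), Jund (0.74), Slc35c2 (0.65), Rapgef5 (-0.79) and Chst5 (-2.22). Jund, a subunit of the AP-1 transcription factor, was at 439 ± 61.9 CPM with 2 mg/kg against 263 ± 27.1 CPM with vehicle. For Hpgds the difference was -0.23 (95% interval -1.15 to 0.68), for Ptges -0.07 (-0.51 to 0.37), for Col3a1 0.37 (-0.1 to 0.85), for Tnmd -1.02 (-1.84 to -0.21) and for Mmp12 0.1 (-1.58 to 1.78). These intervals are for single genes, with no adjustment for the number tested, so that of Tnmd, which leaves out 0, does not make a call. The interval of Mmp12 spans differences of several fold in either direction, and that of Col3a1 less than 1 log2 unit.

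Against 21D 6 mg/kg tendons, edgeR's quasi-likelihood test again called 0 genes (0% in each direction), the smallest adjusted p being 0.0771, while 1751 genes reached an unadjusted p below 0.05. Here the tool mattered: limma called 0, the likelihood ratio test 14 and DESeq2 81. The 5 genes of smallest p were Tmem259 (0.41), Jund (0.78), AC109096.1 (0.91), AABR07061902.1 (0.93) and Chst2 (0.75), all higher in 21D 2 mg/kg tendons. Jund was at 256 ± 19.5 CPM in 21D 6 mg/kg tendons. For Hpgds the difference was -0.47 (95% interval -1.38 to 0.45), for Ptges -0.2 (-0.64 to 0.25), for Tnmd -0.81 (-1.62 to 0.0) and for Mmp12 0.9 (-0.79 to 2.6).

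Between 7 and 21 days at 2 mg/kg, 637 genes (5.07%) were higher at the later day and 496 genes (3.95%) were lower. All 23 contractile genes were among the higher ones, by a median of 8.56, and Nrap, a protein of muscle attachment sites, was at 257 ± 142 CPM at 21 days against 0.263 ± 0.148 CPM at 7 days (log2 difference 9.79, adjusted p = 9.15e-05). Muscle shares as low as in the 7D 2 mg/kg tendons were not common to all day 7 groups. Tendons given 6 mg/kg for 7 days (7D 6 mg/kg, n = 3) had like shares, 0.0071% to 0.0092%. Tendons given vehicle for 7 days (7D 0 mg/kg, n = 5) had muscle shares of 0.154% to 1.07%. The lowest 21D 0 mg/kg tendon was at 0.0583%. Of the 26 respiratory chain genes 0 were called, and their median difference was 0.18. Rab15 (1.44) and Zdhhc1 (1.21), a palmitoyltransferase, were higher at 21 days, and Dpep1 (-3.63), a membrane dipeptidase, and Agtr1a (-1.4), an angiotensin receptor, were lower.

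Of 12 adipocyte genes 10 were lower at 21 than at 7 days, by a median of -2.96. Adipoq was at 433 ± 336 CPM in 7D 2 mg/kg tendons (-3.78, adjusted p = 0.000269). Cd163 (-1.63), S100a8 (-1.86), Isg15 (-2.11), Plvap (-1.09) and Vwf (-1.1) were also lower at 21 days, while collagen genes Col5a2 (0.82), Col5a3 (1.13) and Col6a1 (0.89) were higher. In the tendon lineage, Kera (1.5), Thbs4 (1.1) and Six2 (1.89) were higher at 21 days than at 7, of which Kera and Six2 were still below the control tendons. Tnmd differed by 0.77 (adjusted p = 0.237) and Mkx by 1.08 (adjusted p = 0.242), and neither was called. The osteoclast and fusion genes had 0 of 12 called between the days.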

How the data were processed

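RNA from right plantaris tendons (RIN above 8) was sequenced by the authors as single-end reads on a HiSeq instrument. Per the labels and the study's methods, reads were trimmed with fastp, checked with FastQC, aligned with STAR to the rat genome rn6 and counted on genes of Ensembl release 95, and edgeR was used for their own comparison. Versions, and how multi-mapped or antisense reads were counted, are not given in the sources used here. Samples the authors removed, and any other of the study beyond the 30 with labels here, are not analysed here. The authors deposited a table of whole-number counts per gene, in which 0 columns of samples were left unused. A second deposited table of their fold changes and p-values served only for the gene, chromosome and width, and its statistics were not used. The tables give gene widths, not transcript lengths, so levels were not compared between genes.

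Tendons were grouped by their labels. All 30 tendons in 7 groups entered 1 fit in R 4.3.3 with edgeR 4.0.16 (TMM normalization, glmQLFit and glmQLFTest), after 566 of 13124 genes with a mean under 3 CPM in every group were removed. A call needed both a Benjamini-Hochberg adjusted p under 0.05 and a 1.5-fold or larger change. The standard error is the log2 fold change divided by the root of F. Fold changes carry edgeR's prior count, and CPM are scaled by TMM. The test was checked on simulated counts with few changed genes and no shift in composition between groups. The data have many called genes and uneven TMM factors, so that check does not cover the scaling. Alternatives were another scaling, filters, fits, limma 3.58.1, DESeq2 1.42.0 and leaving out each tendon. Libraries of a group differed by far more than sampling noise, the lowest chi-square per gene being 30.7 for any pair.

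The comparison, the 28 gene lists and the rules were chosen with earlier results of these data known. Genes are named by rule: the 10 largest increases and decreases among called genes without overlap whose higher group averaged 10 CPM or more, the 5 smallest p in each direction and in each comparison of repaired groups, members of the lists, and genes the study discusses. Among these, which list members stand in the text was chosen after their values were seen. A few genes that the rule selects are not reported here. The labels give no batch.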

Additional observations from a re-analysis of the deposited data

Results flagged for a closer look

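In 10 of 233 values tested, 1 of the 5 treated tendons stood apart from the rest by Dixon's criterion, where chance gives about 12. Treated tendon 3 was low in Apoe (2247 CPM), Atp5f1b (747.8 CPM), Fam213b (8.10 CPM), Phospho1 (31.6 CPM) and Cntnap4 (0.0897 CPM, at the limit of detection) and high in Ptgs1 (66.7 CPM). Treated tendon 2 was low in Cdhr1 (8.34 CPM) and Ptges (13.1 CPM), treated tendon 1 stood apart in Fam83b (0.309 CPM), and treated tendon 5 was high in Hbb (6859 CPM).

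Of 231 named genes, 52 differed between 21 and 7 days of 2 mg/kg, by the direct edgeR test of 21D 2 mg/kg against 7D 2 mg/kg tendons. Over all 12558 genes tested, 637 (5.07%) were higher at 21 days and 496 (3.95%) were lower. The named genes include those picked for the smallest p in this same test, so their count is no result about them. Values are log2 differences, 21 minus 7 days. That of Myod1 is a fitted value, since the 7D 2 mg/kg tendons held 0 counts of it. By the limit of 3 counts in each of those tendons, it was at least 38.3-fold higher at 21 days. Genes of muscle were higher at 21 days, namely Acta1 (10.37), Myh4 (10.15), Ckm (10.48), Pygm (7.15), Nrap (9.79), Myod1 (10.38), Myf6 (5.64), Des (3.32) and Tpm2 (3.7). Genes of matrix, its enzymes and its cells were higher as well: Col5a2 (0.82), Col5a3 (1.13), Col6a1 (0.89), Col24a1 (1.39), Loxl2 (1.57), Thbs1 (1.85), Thbs4 (1.1), Cilp2 (1.9), Mmp16 (2.01), Kera (1.5), Six2 (1.89), Phospho1 (1.95) and Fap (0.67). So were AABR07061902.1 (0.72), AC109096.1 (0.72), Cdhr1 (2.13), Jchain (2.47), Jund (0.902), Rab15 (1.44) and Zdhhc1 (1.21). Lower at 21 days were the matrix, inhibitor and cell cycle genes Timp1 (-0.87), Timp4 (-1.32), Tnc (-1.3), Mcm3 (-0.69), Clec3a (-3.68) and Coch (-4.5), the immune genes Cd163 (-1.63), Cd3g (-1.09), Cd8a (-0.94), S100a8 (-1.86), Ccl7 (-2.04), Il33 (-0.92), Isg15 (-2.11), Mx1 (-2.69) and Ifit3 (-1.88), the prostanoid genes Hpgd (-1.75) and Ptger3 (-3.37), and Adipoq (-3.78), Agtr1a (-1.4), Dpep1 (-3.63), Plvap (-1.09), Rapgef5 (-0.702) and Vwf (-1.1).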

How the results depend on the processing

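Depth did not limit genes above a few CPM, but genes with fewer than 3 counts in the controls have no measured fold change. Sign changes of genes not called under either setting are not counted below. Across other scalings, filters, fits and tools, 6774 genes changed against control tendons stayed within 1.5 times in number, except that scaling by total count alone gave 5796 higher and 1917 lower. Leaving out 1 tendon gave 5938 (without control tendon 4) to 7048 (without control tendon 2), with 2717 to 3603 higher and 3221 to 3834 lower. The muscle share difference ranged from -17.53 to -14.83 percentage points, where 7 tendons cannot reach an exact permutation p below 0.05 in these splits.

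Against 21D 0 mg/kg tendons, the likelihood ratio test called 4 genes (2 higher, 2 lower) and DESeq2 11 (3 higher, 8 lower), and leaving out 1 tendon called 0. Against 21D 6 mg/kg tendons, total count scaling called 1 (higher), the fit of these 2 groups alone 13 (all higher), the muscle share as covariate 6 (5 higher, 1 lower), the likelihood ratio test 14 (9 higher, 5 lower) and DESeq2 81 (43 higher, 38 lower). Leaving out 1 tendon there called 0 to 1, the 1 being lower, without 21D 2 mg/kg replicate 4, with 0 higher. Against 7D 2 mg/kg tendons, the 496 lower genes became 889 with the covariate and 751 with no fold threshold. Leaving out 1 tendon gave 771 to 1073 genes, 432 to 610 higher and 339 to 494 lower, the lowest without 7D 2 mg/kg replicate 5. The cause of these shifts was not tested.

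Replicate numbers are shared between groups, but samples of the same number did not deviate together: the correlations of deviations between control and 21D 2 mg/kg tendons were 0.12, -0.02 and -0.04 for numbers 2, 3 and 4, and 1 of 3 tendons correlated best with its own number. With the replicate number as a block, 6848 genes changed against control tendons (3435 higher, 3413 lower), 0 differed from either other day 21 group, and 1076 differed from 7D 2 mg/kg tendons (607 higher, 469 lower). Of the named genes, Acan and Col1a1 gained a call and Cilp2 and Itga2b lost theirs.

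Of 231 genes named, 11 lost and 16 gained a call when scaled by total count, and 15 lost and 1 gained one with the muscle share as covariate, under which Acta1 stood at 0.085, Ckm at -0.38, Aqp4 at -1.04, Myod1 at -0.17 and Nrap at -0.05, none of them called. Without control tendon 3, Plvap (0.92) and Slco2a1 (1.44) turned to higher. Their lowest values with 1 tendon left out were -0.51 and -0.55. DESeq2 and the likelihood ratio test each gained 2 (Cd3e and Col1a1), limma lost 7 and gained 3, and the fit of the 2 groups alone lost 13 and gained 1. Beside moves given in the report, counts of list members moved by over 1.5 times for macrophage genes (8 higher and 1 lower with the covariate), lymphocyte genes (6 higher in the fit of 2 groups and with a minimum of 10 CPM) and chemokines (7 higher in the fit of 2 groups), tendon lineage genes (5 higher when scaled by total count), collagen processing genes (0 lower when scaled by total count, in the fit of 2 groups, with the block and by limma), proteoglycans (3 lower when scaled by total count, in the fit of 2 groups and by limma), cartilage and bone genes (4 higher when scaled by total count or with the block, 1 higher and 2 lower with a minimum of 10 CPM), neutrophil genes (1 higher by limma), mast cell genes (0 higher and 0 lower in the fit of 2 groups, 0 lower when scaled by total count or with the covariate), endothelial genes (1 lower in the fit of 2 groups and by limma), erythroid and platelet genes (0 higher in the fit of 2 groups, 1 with the block or by limma), Schwann cell genes (5 higher when scaled by total count) and adipocyte genes (2 lower when scaled by total count or with the covariate).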
